A study of Mus musculus with 9 samples.

Results

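The complement and coagulation factors described here are 39 genes, 21 of the complement cascade and 18 of blood coagulation and fibrinolysis, named by a list of plasma proteins that the liver makes. A gene was measured where a bead probe carrying its symbol was detected on at least 4 of the 9 arrays, at a detection p-value under 0.05. By that rule 35 of the 39 genes were tested, among 11559 features tested in all, with 18 of 21 genes for complement and 17 of 18 for coagulation. C3, Cfd and Cpb2 were not analysed here, because no probe carried their symbol in the annotation used. C1ra had 2 probes, detected on 0 arrays. The gene listed as C1s is named C1s1 in RefSeq, and C5 is named Hc in the mouse.

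RNA of whole livers was taken from C57BL/6 mice 12 hours after partial hepatectomy, surgery in which some liver lobes are taken out and the remnant regrows. The 4 control livers came from wild-type (WT) mice with the treatment given as control, and the labels do not say whether these mice received a vehicle. The 5 livers called KO came from LTRβ-/- mice, which lack the lymphotoxin beta receptor, given etanercept (Enbrel), a soluble decoy receptor for tumour necrosis factor, 24 hours before surgery. Genotype and drug differed together, so their parts cannot be told apart. Neither unoperated livers nor mice with only the genotype or only the drug were among the samples used here, and age and sex are not given in the sources used here. The labels do not state that each array is a separate animal, so a liver here means the sample of 1 array, and the p-values measure the spread between these samples.

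Complement is a chain of plasma proteases. Mannose-binding lectins or C1 recognise a surface, their proteases cut C4 and C2, the alternative pathway amplifies the signal through factor B and properdin, and C5 to C9 build a pore in the membrane. Coagulation is a second chain of proteases ending in thrombin and fibrin, restrained by antithrombin, heparin cofactor II, protein C and protein S, and fibrin is dissolved by plasmin. Hepatocytes make most of these proteins, whereas properdin comes largely from myeloid cells.

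No complement or coagulation gene passed the test between the groups (0 of 35 at an adjusted p under 0.05 in limma, against 0.00865% of all features tested, a single feature). Before adjustment 3 of the 35 had a p under 0.05, against 4.09% of all features: 1 with a higher mean in the KO livers (Cfp, against 1.64% of all features) and 2 with lower means (C4bp and Klkb1, against 2.45%). The lowest adjusted p among the members was 0.931. The group means were lower in the KO livers for 32 of the 35 genes, against 52.4% of all features, and higher for 3, Cfp, C4b and Hc, against 47.6% of all features. The difference exceeded its standard error for 12 of the 35 (4 of complement and 8 of coagulation), near the share of 35.5% of all features. No member had every KO liver below every control (0.467% of all features did) or every KO liver above every control (0.329% did).

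The size of the differences was small on the log2 scale. The median difference, KO minus control, was -0.15 over the 18 complement genes and -0.29 over the 17 coagulation genes, beside -0.02 over all features. All 17 coagulation genes and 15 of the 18 complement genes had a difference below 0. The standard errors of the members ran from 0.19 to 0.62, with a median of 0.24. In bulk tissue, fewer cells of a type and less RNA per cell cannot be told apart.

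**Figure D1:**
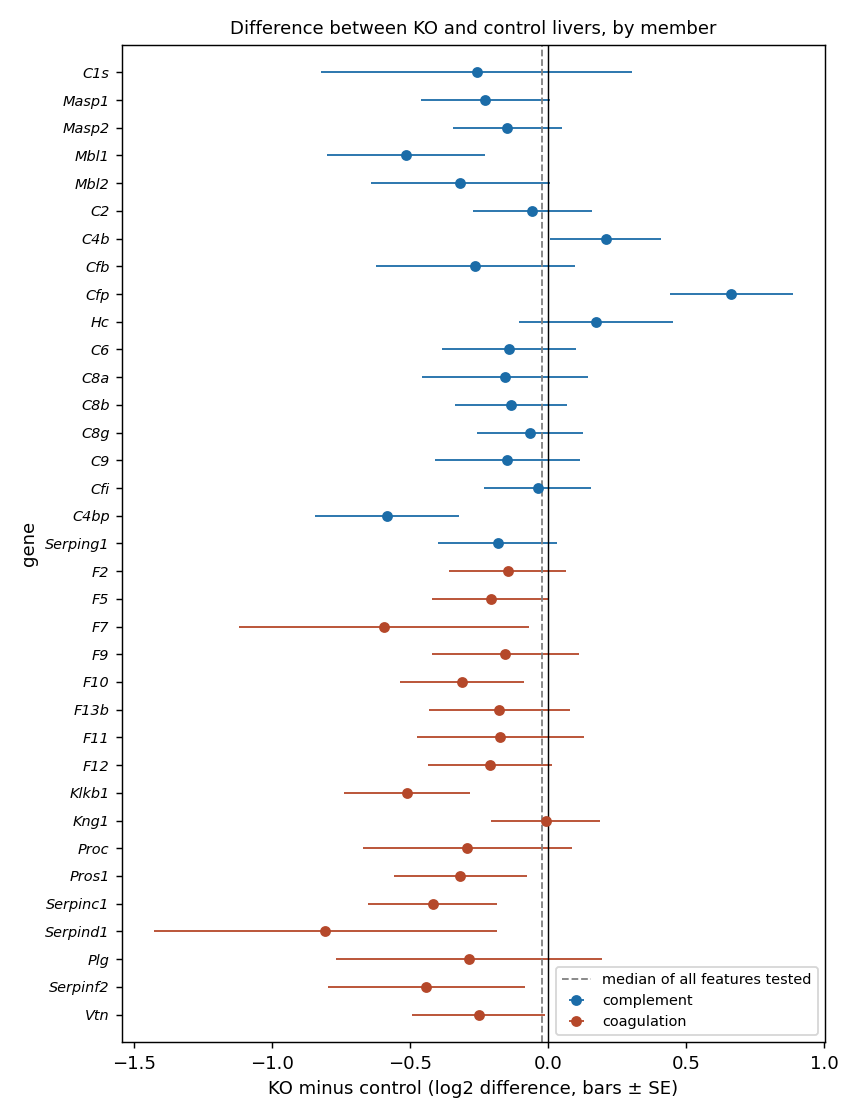
Difference between KO and control livers for each of the 35 genes (x axis, log2, KO minus control; bars, standard error; blue, complement; red, coagulation; dashed line, median of all 11559 features). Of the 35 points 32 lie left of 0, Cfp lies farthest right at 0.66, and Serpind1 lies farthest left at -0.81 with the widest bar.

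The stretches just before the annotated starts of Cfp, C4bp and Klkb1 are shown because these are the members with the smallest p. They are RefSeq sequences of build GRCm38.p6, printed 5′ to 3′ on the gene's strand and trimmed to bases outside the annotated gene. Capitals mark a match to GTTAAT, a core of sites for the liver factor HNF1, in Cfp and C4bp, and a match to TGTTTAC, a core of sites for FOXA factors, in Klkb1, where it stands on the opposite strand as GTAAACA.
Cfp, chrX:20931556-20931675, minus strand: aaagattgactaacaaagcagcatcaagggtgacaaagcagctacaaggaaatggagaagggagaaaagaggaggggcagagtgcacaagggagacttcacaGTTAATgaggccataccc
C4bp, chr1:130661658-130661738, minus strand: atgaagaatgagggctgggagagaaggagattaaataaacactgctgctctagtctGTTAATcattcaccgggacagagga
Klkb1, chr8:45294836-45294955, minus strand: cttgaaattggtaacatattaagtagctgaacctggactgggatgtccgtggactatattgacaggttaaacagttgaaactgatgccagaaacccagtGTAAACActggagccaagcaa

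Over the 250 bases before the start, searched on both strands, 26 of the 35 tested genes had an entry in the RefSeq table of 27025 genes. GTTAAT was present in 7 of the 26 (26.9%), namely C4bp, C8a, C8b, Cfp, F13b, Hc and Vtn, and in 7.49% of all genes. The C/EBP motif TTGCNNAA was present in 5 (19.2%, against 10.8% of all genes), the STAT motif TTCNNNGAA in 4 (15.4%, against 8.13%) and TGTTTAC in 2, F11 and Klkb1 (7.69%, against 3.54%). Neither CAAAGTCC, a core of HNF4 sites (1.38% of all genes), nor GAGGAAG, a core of sites for the myeloid factor PU.1 (12% of all genes), was found in these windows. No motif is contained in another, and a match is only a description of the sequence. The genes holding GTTAAT were not of one direction: Cfp differed by 0.66 and Hc by 0.17, whereas C4bp differed by -0.58, Vtn by -0.25, F13b by -0.18, C8a by -0.16 and C8b by -0.13.

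Among the starters of the lectin and classical pathways, the KO mean was lower for all 5 genes measured, with a median difference of -0.26. Mbl1, a mannose-binding lectin, read 11.90, 12.69, 11.98 and 13.002 (normalized log2 value) in control livers 1 to 4. In KO livers 1 to 5 it read 12.10, 11.64, 12.10, 12.09 and 11.46. Controls 2 and 4 stood above every KO liver, while controls 1 and 3 lay among them. The difference was -0.51 ± 0.29 (SE), with an adjusted p of 0.931 in limma.

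Mbl2, the other mannose-binding lectin, read 10.28, 11.58, 10.56 and 10.82 in the controls and 10.45, 10.85, 10.89, 9.72 and 10.54 in the KO livers. Its highest value was in control 2 and its lowest in KO 4, and the remaining livers of the groups overlapped. The Mbl2 difference was -0.32 ± 0.33 with all livers, -0.06 without control 2 and -0.13 without KO 4. Masp1, a protease that travels with the lectins, read 11.92, 11.32, 11.48 and 11.90 in the controls and 11.68, 11.08, 11.45, 11.69 and 11.24 in the KO livers. Controls 1 and 4 were the highest livers for Masp1, with a difference of -0.23 ± 0.23, and its other probes gave 0.17 and -0.51, so its direction was not settled. Masp2, which cuts C4 and C2, differed by -0.15 ± 0.20.

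C1s, the protease of the C1 complex, was near the detection limit and was detected on 8 of the 9 arrays, all but that of KO 4. It read 5.04, 7.36, 6.69 and 6.25 in the controls and 5.91, 7.17, 6.97, 4.64 and 5.69 in the KO livers. Each group held livers spread over more than 2 log2 units, and the difference of -0.26 ± 0.56 was smaller than its error. A second C1s probe gave 0.05. Mouse C1s has a close copy, C1s2 (-0.45 ± 0.22, detected on 6 arrays), and how far the probes tell them apart was not tested.

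The central components and the alternative pathway held 2 of the 3 complement genes with higher KO means. C4b, which is cut to mark a surface for attack, read 11.41, 11.85, 11.71 and 11.52 in the controls. In the KO livers it read 11.85, 12.03, 11.68, 11.89 and 11.71. Every KO liver stood above controls 1 and 4, and KO 3 and 5 lay beside control 3. The difference was 0.21 ± 0.20, with 0.15 and -0.01 on its other probes. C4b is nearly identical in sequence to C4a, whose probe gave -0.13 ± 0.46, so its value is uncertain. C2, the partner of C4b in the C3-cutting enzyme, differed by -0.06 ± 0.22.

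Cfp, properdin, which stabilises the alternative pathway's C3-cutting enzyme, had the smallest p of all members. It read 10.81, 11.31, 10.998 and 11.16 in control livers 1 to 4, and 11.85, 11.79, 11.30, 12.04 and 11.69 in KO livers 1 to 5. All KO livers stood above all controls except KO 3, which lay just under control 2. The means were 11.07 ± 0.21 (SD, n = 4) and 11.73 ± 0.28 (SD, n = 5), a difference of 0.66 ± 0.22 (SE) or 1.58-fold, with an unadjusted p of 0.0123 and an adjusted p of 0.931 in limma. Without KO 4 the difference was 0.59 ± 0.20, and with surgery day as a block it was 0.64 ± 0.31.

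Macrophage and Kupffer cell markers had higher group means in the KO livers, as Cfp had. Of the 19 listed markers 15 were measured and 13 of these had higher KO means, with a median difference over the 15 of 0.63. In limma 6 were higher at an unadjusted p under 0.05, against 1.64% of all features, and 0 passed the adjusted threshold. Their mean log2 level ran from 7.78 to 8.42 in the controls and from 8.22 to 9.11 in the KO livers. The differences were 1.10 for Marco, 0.64 for Vsig4, 0.53 for Clec4f, 0.48 for Csf1r and 0.42 for Adgre1, whereas Cd5l was detected on 0 arrays and Cd68 had no probe named. The part of these cells in the Cfp value was not tested. Cfb, factor B, the serine protease that Cfp stabilises and that hepatocytes make in the acute phase, differed by -0.26 ± 0.36, by -0.02 without control 3 and by 0.10 with surgery day as a block.

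**Figure D2:**
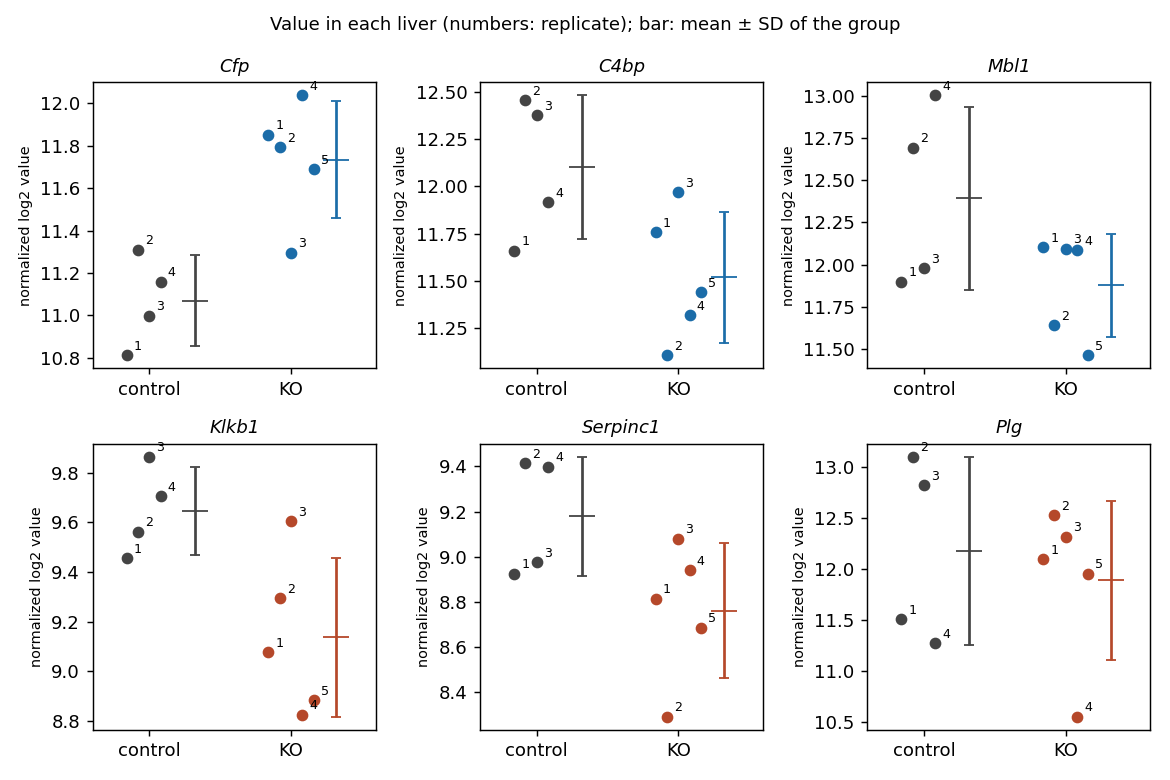
Normalized log2 value in each liver (y axis) for Cfp, C4bp, Mbl1, Klkb1, Serpinc1 and Plg; points carry the replicate number, and the bar is the mean ± SD of the 4 control (grey) or 5 KO (blue for complement, red for coagulation) livers. The y axes differ between panels; the Cfp groups meet only at control 2 (11.31) and KO 3 (11.30), and the Plg value of KO 4 (10.55) is the lowest of all 9.

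Of the 6 terminal components, which form the membrane pore, 5 had lower KO means by 0.07 to 0.16, and their standard errors ran from 0.19 to 0.30. Hc, the mouse C5, whose cut starts pore assembly, read 10.68, 11.45, 11.18 and 11.65 in the controls and 11.42, 11.06, 11.36, 12.06 and 11.16 in the KO livers. Control 1 was lowest and KO 4 highest, with a difference of 0.17 ± 0.28. The Hc difference was -0.01 without control 1 and 0.01 without KO 4, so its size rested on those livers. C8a and C8b, subunits of C8, differed by -0.16 ± 0.30 and -0.13 ± 0.20. C8g, the third subunit, differed by -0.07 ± 0.19, C6 by -0.14 ± 0.24 and C9, the pore's ring, by -0.15 ± 0.26, where the other C9 probes gave 0.11 and 0.09.

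The complement inhibitors were led by C4bp, which binds C4b and speeds its inactivation. C4bp read 11.66, 12.46, 12.38 and 11.92 in the controls and 11.76, 11.11, 11.97, 11.32 and 11.44 in the KO livers. Controls 2 and 3 were the highest and KO 2, 4 and 5 the lowest livers, while controls 1 and 4 overlapped KO 1 and 3. The means were 12.10 ± 0.38 (SD, n = 4) and 11.52 ± 0.35 (SD, n = 5), with a difference of -0.58 ± 0.26 (SE), an unadjusted p of 0.0471 and an adjusted p of 0.931 in limma. A second C4bp probe gave -1.02 ± 0.43. Cfi, which cuts C4b and C3b with C4bp as a helper, differed by -0.04 ± 0.19, and Serping1, the C1 inhibitor that also blocks the contact system, by -0.18 ± 0.22.

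The 6 procoagulant genes all had lower KO means, with a median difference of -0.19. F2, prothrombin, where the cascade converges, read 11.40, 11.97, 12.06 and 11.88 in the controls and 11.68, 11.63, 11.70, 11.54 and 11.87 in the KO livers. Control 1 was the lowest liver of all and controls 2 to 4 were the highest, with a difference of -0.15 ± 0.21. F10, which with factor V cuts prothrombin, read 11.67, 12.12, 11.89 and 12.36 in the controls and 11.38, 11.84, 11.83, 11.90 and 11.53 in the KO livers. Controls 2 and 4 stood above all KO livers for F10, with a difference of -0.31 ± 0.23.

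F7, which starts coagulation with tissue factor, was detected on 8 arrays, all but that of KO 4. It read 5.91, 7.65, 7.07 and 6.77 in the controls and 5.57, 7.36, 7.26, 4.94 and 6.14 in the KO livers. KO 4 and KO 1 were lowest, but KO 2 and KO 3 exceeded 3 of the controls. The difference was -0.59 ± 0.53, and -0.26 without KO 4. F5, the cofactor of F10, differed by -0.21 ± 0.21, F9 by -0.15 ± 0.26 and F13b, the carrier subunit of the fibrin cross-linker, by -0.18 ± 0.26.

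Among the contact system genes, Klkb1, plasma prekallikrein, which activates factor XII and releases bradykinin from kininogen, had the smallest p. It read 9.46, 9.56, 9.86 and 9.71 in the controls and 9.08, 9.30, 9.61, 8.83 and 8.88 in the KO livers. Only KO 3 reached into the range of the controls. The means were 9.65 ± 0.18 (SD, n = 4) and 9.14 ± 0.32 (SD, n = 5), a difference of -0.51 ± 0.23 (SE), with an unadjusted p of 0.0469 and an adjusted p of 0.931 in limma, and a second probe gave -0.81 ± 0.36. F11 differed by -0.17 ± 0.30 and F12 by -0.21 ± 0.23. Kng1, kininogen, differed by -0.01 ± 0.20 on its brightest probe, and its other probes gave -0.29 and -0.31. It has a close copy, Kng2, whose value was -0.59 ± 0.75.

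The anticoagulants had the lowest median difference of any role, -0.37 over 4 genes. Serpinc1, antithrombin, the main inhibitor of thrombin and factor Xa, read 8.92, 9.41, 8.97 and 9.40 in the controls and 8.81, 8.29, 9.08, 8.94 and 8.68 in the KO livers. Controls 2 and 4 stood above all KO livers and controls 1 and 3 among them. The difference was -0.42 ± 0.23, but the second Serpinc1 probe gave 0.17 ± 0.55.

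Pros1, protein S, the cofactor of protein C, read 9.80, 10.40, 10.60 and 10.20 in the controls and 10.19, 9.998, 10.17, 9.77 and 9.55 in the KO livers. Controls 2, 3 and 4 were above all KO livers and control 1 was among the lowest. The Pros1 difference was -0.32 ± 0.24, and -0.09 with surgery day as a block. Serpind1, heparin cofactor II, read 8.53, 10.62, 10.11 and 9.31 in the controls and 8.47, 9.76, 10.25, 7.06 and 8.65 in the KO livers. This gene had the widest spread of the members, and KO 4 alone lay below 8. Its difference was -0.81 ± 0.62 with all livers and -0.36 without KO 4. Proc, protein C, differed by -0.29 ± 0.38, and by -0.06 without KO 4.

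In fibrinolysis, Plg, the precursor of plasmin, read 11.51, 13.10, 12.82 and 11.28 in the controls and 12.10, 12.53, 12.32, 10.55 and 11.95 in the KO livers. KO 4 was the lowest and control 2 the highest, and KO 1, 2, 3 and 5 lay between the upper and the lower pair of controls. The Plg difference was -0.29 ± 0.48 and became 0.05 without KO 4. Serpinf2, the plasmin inhibitor, differed by -0.44 ± 0.36 (-0.17 without KO 4), and Vtn, vitronectin, which stabilises the inhibitor of plasminogen activation and also blocks the complement pore, by -0.25 ± 0.24 (-0.14 without KO 4).

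**Figure D3:**
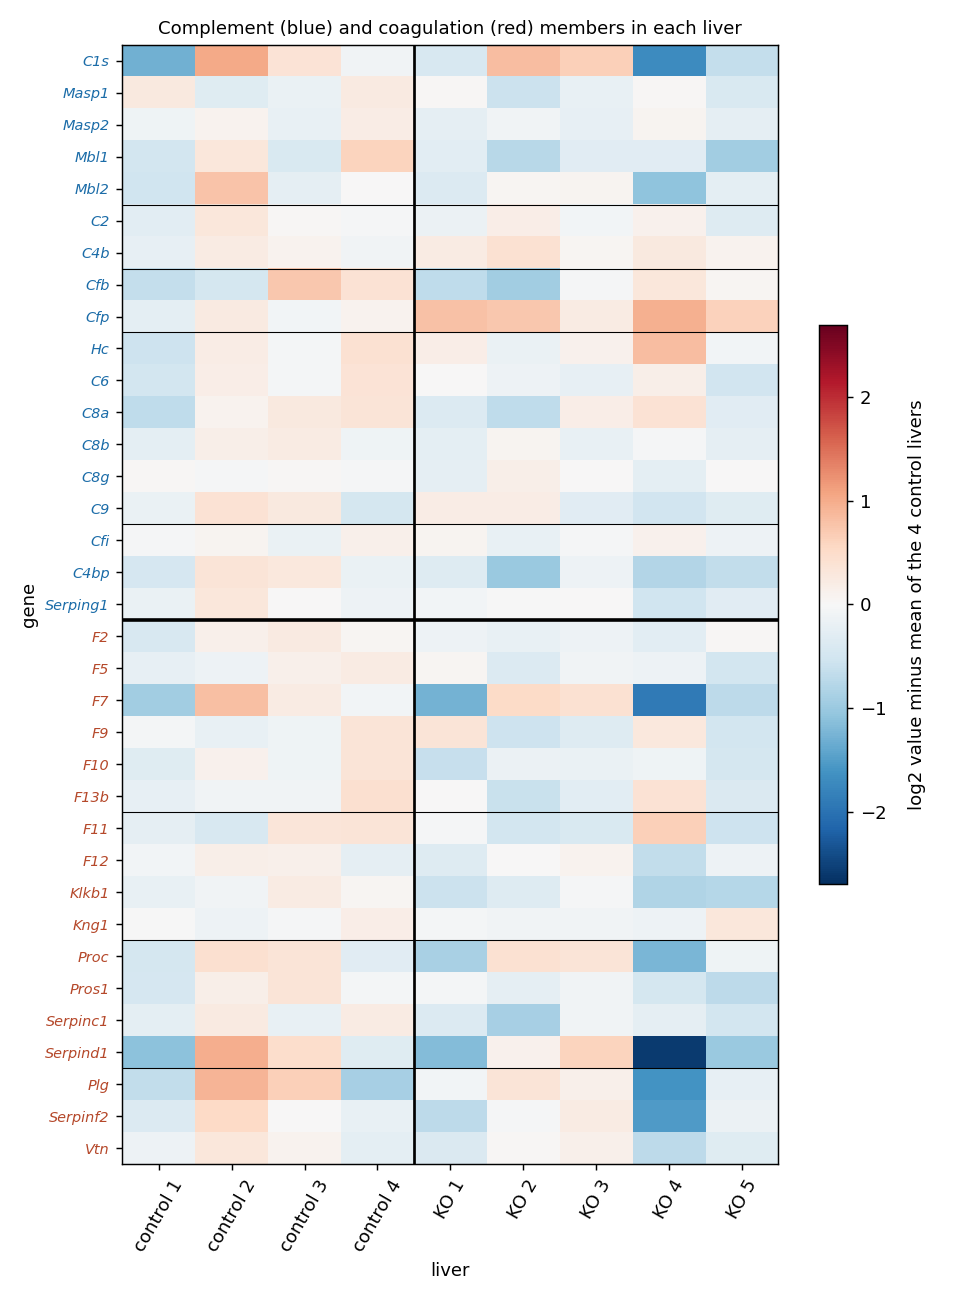
Log2 value of each gene in each liver minus the mean of the 4 control livers (colour scale, blue lower, red higher; columns, livers; rows, genes in order of role; the thick horizontal line parts complement from coagulation). The strongest blue is in the KO 4 column, where Serpind1 read 7.06 against a control mean of 9.64, and the Cfp row is red in all 5 KO livers.

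The livers of a group did not move alike. Control 2 was the highest liver for 14 of the 35 genes, and control 1 was above the gene's 9-liver mean for only 6. KO 4 was the lowest liver for 13 genes, 8 of them among the 17 of coagulation, and the highest for 4. These 8 were F7, F12, Klkb1, Proc, Serpind1, Plg, Serpinf2 and Vtn. The array of KO 4 had a mean signal of 143, against 336 to 438 on the other 8, and 9493 detected probes against 13926 to 16186. Its part in these low values was not tested. Without KO 4 the differences were below 0 for 29 of the 35 genes, against 51.0% of all features. The medians were then -0.11 for complement and -0.26 for coagulation. Of the 35 genes 0 passed, against 4 of all 11559 features. Leaving out each liver in turn moved the difference by over 1.5 times, or turned its sign, in at least 1 case for 31 of the 35 genes, all but Cfp, C4bp, Klkb1 and Serpinc1. The sign turned for 6 of them, C1s, C2, Hc, Cfi, Kng1 and Plg.

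Averaged over the genes, coagulation deviated from the 9-liver mean by -0.19, 0.39, 0.33 and 0.16 in control livers 1 to 4. In KO livers 1 to 5 it deviated by -0.20, 0.02, 0.18, -0.48 and -0.22. The groups overlapped, since control 1 lay with the low KO livers and KO 3 with the controls. For complement the deviations were -0.29, 0.28, 0.11 and 0.16 in the controls and -0.04, -0.04, 0.05, -0.04 and -0.19 in the KO livers, where control 1 was the lowest of all. The complement range of the KO livers lay inside that of the controls.

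**Figure D4:**
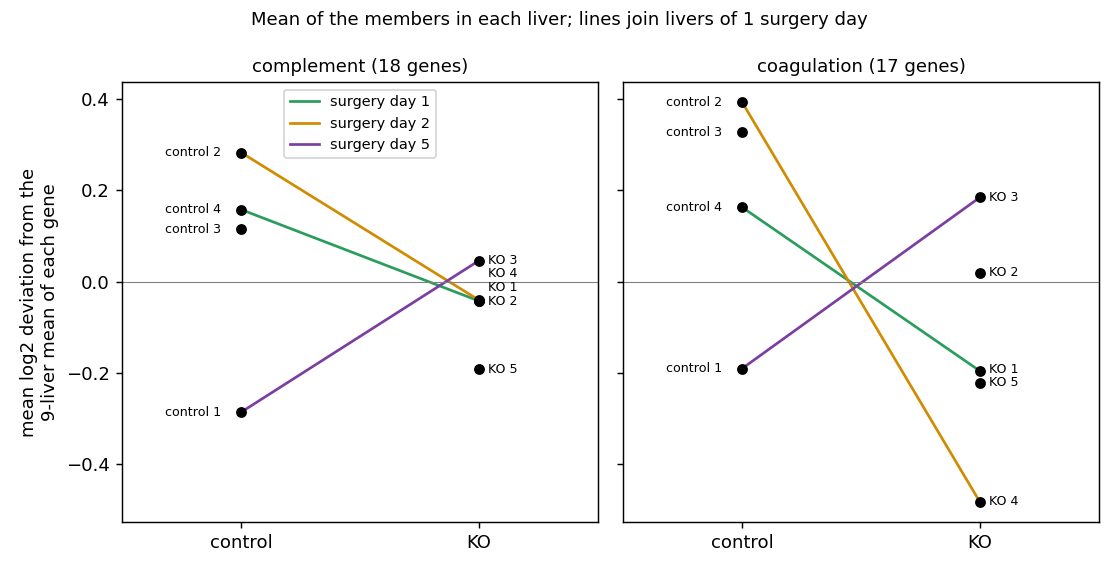
Mean log2 deviation from the 9-liver mean of each gene (y axis) for the 18 complement and 17 coagulation genes, by liver and group; coloured lines join livers operated on the same day. KO 1, KO 2 and KO 4 coincide at -0.04 for complement, and the line of surgery day 5 runs upward from control 1 to KO 3 in both panels while those of days 1 and 2 run downward.

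The labels number the days of surgery, and 3 days held livers of both groups. On day 1 (control 4 and KO 1) the KO liver was lower for 30 of the 35 genes, against 48.0% of all features. On day 2 (control 2 and KO 4) it was lower for 24, against 50.5% of all features. On day 5 (control 1 and KO 3) it was lower for only 9 of 35, with a median difference of 0.22, while 57.8% of all features were lower. With surgery day as a block, only days 1, 2 and 5 inform the difference, with 1 liver of each group on each. In that fit 27 of the 35 genes were below 0, against 53.2% of all features. The medians were -0.10 for complement and -0.29 for coagulation. No gene passed, nor did any other feature. An unadjusted p under 0.05 in limma was seen for 0 of the 35, against 1.51% of all features. With the block and without KO 4, only days 1 and 5 inform the difference, and the medians were 0.06 for complement and 0.03 for coagulation. The direction of the set therefore did not hold on every day of surgery.

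The livers lay on 2 slides of arrays, each with both groups. On slide 1 (controls 1 and 2, KO 1 and 2) 23 of the 35 genes were lower in the KO livers, against 49.8% of all features, with a median of -0.11. On slide 2 (controls 3 and 4, KO 3 to 5) 31 were lower, against 54.3% of all features, with a median of -0.29. All 17 coagulation genes were lower on slide 2 and 12 on slide 1.

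In the authors' deposited normalized values, tested with the same model, 4 of the 35 genes passed, against 9.27% of all features. An unadjusted p under 0.05 in limma was seen there for 10 of the 35, against 33.5% of all features. In the main fit that share was 4.09% of all features. The standard error of Cfp was 0.05 there and 0.22 in the main fit, and that of Cfb 0.05 and 0.36. Cfp differed by 0.63 (adjusted p = 0.000485), Hc by 0.25 (adjusted p = 0.0335) and C4b by 0.24 (adjusted p = 0.0347), higher in the KO livers, and Cfb by -0.24 (adjusted p = 0.0251). When the surgery days were blocked there, 0 of the 35 genes and 0 of all features passed, the members at an adjusted p of 0.783 or above in limma. Cfp still differed by 0.64, C4b by 0.25, Hc by 0.24 and Cfb by -0.21. How those values were normalized is not given in the sources used here.

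Some members lie next to each other in the genome, and differences between neighbours were not tested. Cfb and C2, which adjoin on chromosome 17 near C4b, differed by -0.26 and -0.06, while C4b differed by 0.21. F7 and F10, neighbours on chromosome 8, differed by -0.59 and -0.31. F11 and Klkb1, also neighbours on chromosome 8, differed by -0.17 and -0.51, and C8b and C8a, on chromosome 4, by -0.13 and -0.16.

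Genes of the same systems outside the set gave no passing value either. Among other complement components and regulators 11 of 19 listed genes were measured, 8 lower and 3 higher in the KO mean, with a median of -0.37. Cpn2, a subunit of the carboxypeptidase that inactivates C5a and bradykinin, differed by -1.53 ± 0.58 (unadjusted p = 0.0226 in limma). It read 7.997, 9.98, 9.26 and 9.97 in the controls and 7.29, 7.21, 9.61, 6.78 and 7.94 in the KO livers, so that only KO 3 lay among the controls. C1rl differed by -1.30 ± 0.63, but its probe was detected on only 7 of the 9 arrays, so the size is uncertain. The 3 chains of C1q, which macrophages make, differed by 0.41 ± 0.51 (C1qb), 0.12 ± 0.72 (C1qc) and 0.01 ± 0.44 (C1qa).

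Of the complement receptors and surface regulators 7 of 14 were measured, 5 higher and 2 lower, with a median of 0.07. Vsig4, a receptor for C3b on Kupffer cells that is also in the macrophage list, differed by 0.64 ± 0.22 (unadjusted p = 0.0142 in limma). Of the 3 chains of fibrinogen, the substrate of thrombin, Fga differed by 0.04 ± 0.18, Fgg by 0.10 ± 0.32 and Fgb by -0.02 ± 0.45. Fga read 14.80 to 15.00 over all livers, and whether so bright a probe can still show a difference was not tested. Of other coagulation and fibrinolysis genes 15 of 29 were measured, 9 lower and 6 higher, with a median of -0.09. Mcfd2, which helps to export factors V and VIII, differed by -0.68 ± 0.29, and Plaur, the urokinase receptor, by 1.21 ± 0.55. Of the vitamin K cycle, which completes F2, F7, F9, F10, Proc and Pros1, Vkorc1 differed by -0.32 ± 0.29. Ggcx differed by 0.02 ± 0.42 and Vkorc1l1 by 0.11 ± 0.26.

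Liver transcription factors were measured for 12 of 18 genes, 9 lower and 3 higher, with a median of -0.19. Prox1 differed by -0.64 ± 0.29, Nr5a2 by -0.68 ± 0.35 and Nr1h4, the bile acid receptor, by -0.58 ± 0.33, whereas Hnf4a differed by -0.08 ± 0.22. Hepatocyte markers were measured for 23 of 24 genes, 14 lower and 9 higher, with a median of -0.12, and the 6 defining ones (Alb, Ttr, Apoa1, Trf, Cps1 and Ahsg) were detected on all 9 arrays. Their mean log2 level ran from 12.25 to 12.73 in the controls and from 12.16 to 12.56 in the KO livers. The part of hepatocyte content in the members' lower means was not tested.

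Markers of further cell types were measured to differing extents. Neutrophil markers were measured for 7 of 14 genes, 6 higher and 1 lower. Their mean level was 7.27 to 8.08 in the controls and 7.38 to 8.24 in the KO livers. S100a8 and S100a9 were detected on 9 arrays, while Mpo and Ngp were detected on 0 arrays. Platelet markers were measured for 2 of 10 genes, Ppbp (0.87 ± 0.28) and Pf4 (0.77 ± 0.47), with a mean level of 5.61 to 6.44 in the controls and 6.08 to 7.67 in the KO livers. Adipocyte markers were measured for 3 of 8 genes, all 3 higher, with a median of 0.53. That median is the value of Lep (0.53 ± 0.52), detected on only 5 arrays. Lep read 7.55 in KO 4, 4.66 to 5.52 in the other KO livers and 4.65 to 5.37 in the controls. Plin4 differed by 0.61 ± 0.44 and Cidec by 0.28 ± 0.64. The defining adipocyte markers Adipoq, Plin1 and Retn were detected on 0 arrays. Ltbr, the receptor gene named by the genotype, read 6.41 to 6.97 in the controls and 4.87 to 6.77 in the KO livers, with a difference of -0.78 ± 0.35 and an adjusted p of 0.931, and whether its probe lies in the deleted stretch is not given in the sources used here. The only feature that passed, Acta2, is no member. It stands in the list of stellate cell and fibroblast markers, measured for 11 of 12 genes, 6 higher and 5 lower, with a median of 0.06.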

How the data were processed

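Biotin-labelled cRNA of 9 liver samples was hybridised to Illumina mouse bead arrays, 1 array per sample. Per the file headers, the authors deposited, per array and for 45281 probes, the mean intensity of the beads with its detection p-value. The signals carry no visible background subtraction or scaling, and the detection p-values step as 936 negative control beads would give. A second deposited table holds log2 values made alike between arrays by an unstated step; Partek is named in the submitters' processing notes, with no version.

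The signals were background-corrected from the detection p-values, quantile-normalized and log2-transformed with an offset of 16 (neqc, limma 3.58.1, R 4.3.3). The 15687 probes detected (p under 0.05) on 4 or more arrays entered the test. Of the 45281 probes, 34885 had 1 gene symbol in the platform annotation, 18 had several and 10378 had none; 34807 matched RefSeq by Entrez ID. The probe with the highest mean stood for a gene, giving 11559 features, 2240 of them without a symbol. Levels of different genes are not comparable, because probes differ in brightness. All features were tested with limma (lmFit, eBayes, two-sided) with Benjamini-Hochberg adjustment over all of them. The test was checked on simulated data of independent normal values with 1 SD per gene. Those data hold no dim array and no genes that move together, so the check does not cover these. No covariate entered, and the 4 control and 5 KO arrays limit the precision.

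The members and lists were chosen with earlier results of these data known. Values in every liver are given for the 6 complement and 5 coagulation genes with the smallest p, for Hc, F2, Plg and Serpinc1, and for genes detected on fewer than 9 arrays. Cpn2 and Ltbr were added after their values were seen. Of other lists, at most the 3 genes with the smallest p, C1q, fibrinogen and defining markers are named. Hnf4a, Ggcx, Vkorc1l1 and the paralogs C4a and Kng2 were added. Surgery days, which the labels number, pair livers of the groups; the correlation of the paired livers' deviations was 0.17 on day 1, -0.41 on day 2 and -0.56 on day 5. Alternatives covered normalization, background, detection filter, probe rule, surgery day, slide, array weights, variance model, membership and each liver left out. Sequences came from RefSeq (GRCm38.p6); no sequence of Proc is shown.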

Additional observations from a re-analysis of the deposited data

Results flagged for a closer look

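The Plg value of KO 4 was 10.55 on the log2 scale, far from the other 4 KO livers, which read 11.95 to 12.53. The gap to its neighbour was 0.71 of the range of the group. Such a gap was looked for in 36 groups and found in 1 of them, and chance gives it in about 1 group in 20. The array of KO 4 was also the dimmest, with a mean signal of 143 against 336 to 438, and its part in the value was not tested.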

How the results depend on the processing

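Over 32 alternatives the complement median stayed within the spread between replicates of its main value in 29, and over 31 the coagulation median did so in 27. That spread, a pooled SD, was 0.17 for complement and 0.26 for coagulation. A complement median of 0 would thus also have counted as unchanged, so this count does not settle its direction. The complement median was below 0 in 30 alternatives and the coagulation median in 29. No member passed in 26 of 27 alternatives with a test; in the authors' deposited values 4 did. Leaving out each liver in turn gave medians of -0.21 to -0.08 for complement and -0.42 to -0.20 for coagulation. No member passed in these fits, and 0 to 4 of all features did. Complement had its lowest value without control 1, and -0.08 without control 2 or without control 3. Median scaling moved the medians to -0.59 and -0.73 while all features moved to -0.26, so the members stood -0.37 from the rest; C4b became -0.26 and Hc -0.25. The cause of these moves was not tested.

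Surgery day 2 alone gave a coagulation median of -0.63 and Masp1 0.36. Surgery day 1 alone gave Hc -0.23 and Plg 0.82. Surgery day 5 alone gave medians of 0.24 for complement and 0.16 for coagulation, with C4bp 0.31, Mbl1 0.20, Mbl2 0.61, Klkb1 0.15, Serpinc1 0.15, F10 0.16, Pros1 0.36, Serpind1 1.72, F2 0.30, Plg 0.81, C1s 1.93 and F7 1.36. Each of these is 1 array against 1 and has no test. The replicate block on surgery day left both medians below 0 (-0.10 and -0.29) and changed no call of a member. The replicate block without KO 4 rests on surgery days 1 and 5, with 1 array against 1 on each. It gave medians of 0.062 and 0.027, with C4bp 0.076, Mbl2 0.12, Pros1 0.18, Serpind1 0.44, F2 0.051, Plg 0.82, C1s 0.80 and F7 0.080. With the replicate block on surgery day and all arrays in the authors' values, an alternative chosen after seeing the data, 0 members and 0 of all features passed.

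Cyclic loess gave C1s 0.046, and slide 1 alone gave Plg 0.0064 and C1s 0.34. Without control 1 Hc was -0.013, and without control 2 Plg was 0.021 and C1s 0.081. With each liver left out in turn, Hc ran from -0.013 to 0.31, Plg from -0.59 to 0.046 and C1s from -0.69 to 0.099. Without KO 4 Plg was 0.046 and C1s 0.10, and Plg 0.046 and C1s 0.11 when that array was left out from the background correction on. Array weights (0.142 for KO 4, 4.92 for KO 5) gave Hc -0.034 and 9 members at an unadjusted p under 0.05 in limma. Of all features 15.7% had such a p, against 4.09% without weights. With the weights 0 members and 10 of all features passed. Cfp kept its sign in all 29 alternatives, from 0.23 to 0.77. Signal near background limits C1s and F7, which KO 4 did not detect.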
